A study of Mus musculus with 16 samples.

Results

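The adult hemisuction pools labelled ABI 4W and ABI 1W (ABH in the study) were compared directly with each other, so that the control pool did not enter the difference. The members were chosen by their labels, namely the 4 arrays of these 2 pools among the 16 arrays of the series. Both pools came from C57BL/6J mice whose left cortex had been removed by aspiration in adulthood, and both hold RNA of the right, unlesioned neocortex rostral from bregma. The ABI 1W animals were sampled 1 week after the operation at 11 weeks of age, and the ABI 4W animals 4 weeks after it at 15 weeks of age. The control 10W pool, taken from mice of 10 weeks of age, and the control P35 pool, taken from mice of 35 days of age, are given beside them. RNA of several male animals was pooled in each group, so a group consists of 1 pool and has no biological replicate. Separate arrays held the Cy3-labeled and the Cy5-labeled RNA of a pool, and the 2 arrays repeat the same RNA, so their spread is technical. No test between the weeks was therefore possible, and every value describes these pools. The ABI pools also differ in age, so age and time after the operation cannot be told apart between them. The oldest control pool was 10 weeks of age, so neither ABI pool has a control of its own age.

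After a cortical injury, debris of dying axons and myelin is cleared by microglia and by macrophages that enter from the blood and the meninges. These cells take up lipid and protein, switch on lysosomal and antigen-presenting genes and release chemokines that call in further leukocytes. Fibroblasts of the meninges and vessels lay down collagen, and astrocytes enlarge and make intermediate filaments such as Gfap. Interferon acts in the same phase through an element in the promoters of its target genes. The comparison asked which of these responses had returned to the control level by 4 weeks and which remained.

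The levels below are log2 of the background-subtracted spot signal minus the 75th percentile of the array, so a level of 0 stands at that percentile. A gene was called higher or lower when the difference between the weeks was at least 1.5-fold in the same direction with both dyes. Where neither array of a pool was well above background, the floor was the lowest signal of that array that was still well above background, and the fold is written as at least that size. With Cy3, 62.8% of the probes were well above background in ABI 1W and 72.2% in ABI 4W. With Cy5 the shares were 68.2% and 68.5%. On the 4 arrays, between 1.17% and 1.43% of the probes were saturated. Markers of cortical excitatory neurons were measured for 15 of 15 genes. Those of the striatum were measured for 14 of 14 and those of the leptomeninges for 16 of 16, so such a count does not tell the tissue. Markers of other tissues that moved with the pools are given beside the results they touch. All operated pools lay in another row of the slides than the control pools, so slide position and operation cannot be told apart in any difference from control. The 2 ABI pools lay in the same row.

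Of 16194 genes measured in at least 1 ABI pool, 741 were lower at 4 weeks than at 1 week, or 4.58% of those measured, and 1118 were higher, or 6.9%. The called genes had a median difference of -1.20 for the falls and 1.18 for the rises, and at 2-fold 420 were lower and 412 higher. Of the 1118 rises 288 were bounds, and of the 741 falls 61, so these folds are minimum values. Falls prevailed among the largest changes. With both dyes, 28 genes fell at least 8-fold, whereas 2 genes, *Ttr* and *Kcne2*, which are both markers of the choroid plexus, rose as much. The dyes gave opposite calls for 41 genes, and the differences with the 2 dyes had a Pearson correlation of 0.78 across the 16194 genes, which are not independent replicates. By signal, 992 of the 1118 rises lay in the lowest of 4 equal groups of genes. The falls numbered 287, 293, 113 and 48 from the lowest group to the highest. In the other 3 groups together, 126 genes were higher and 454 lower. The split also depended on the scaling between arrays, since lower calls made up 39.9% of all calls here, 76% after median scaling, 68.3% after quantile normalization and 70.5% without scaling. The median difference of all genes was 0.13 here, -0.28 after median scaling, 0.01 after quantile normalization and -0.13 without scaling, and list medians should be read against it.

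**Figure D1:**
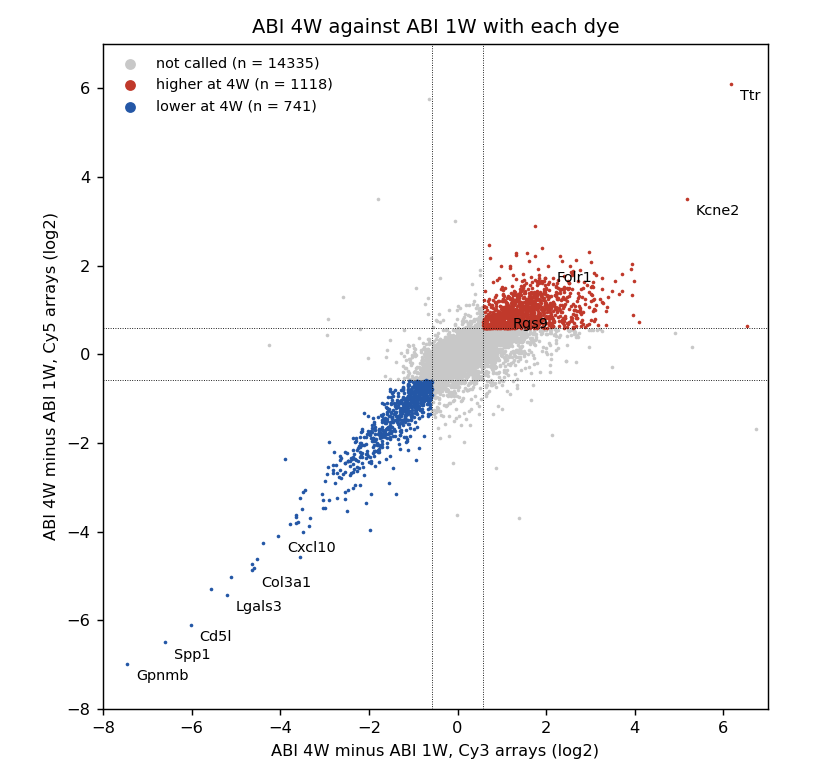
Difference between ABI 4W and ABI 1W for each measured gene on the Cy3 arrays (horizontal, log2) and on the Cy5 arrays (vertical, log2), with the 1.5-fold limits dotted. *Gpnmb*, *Spp1* and *Cd5l* lie at the lower left near the diagonal, *Ttr* at the upper right, and most of the 1118 higher genes show a larger difference with Cy3 than with Cy5.

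Of the 10 largest falls among genes measured on all 4 arrays, 4 were on the list of phagocyte genes and 2 were collagens. *Gpnmb*, a membrane glycoprotein of phagocytes that digest myelin, had levels of -3.96 and -3.43 (Cy3 and Cy5) in the control 10W pool, 3.20 and 3.33 in ABI 1W, and -4.25 and -3.65 in ABI 4W. It was 149-fold lower at 4 weeks than at 1 week, the largest fall among the genes measured on all 4 arrays. *Spp1*, the secreted phosphoprotein osteopontin, stood at -2.59 and -2.55 in control, 3.89 and 3.73 at 1 week, and -2.71 and -2.77 at 4 weeks, a fall of 93.9-fold. For both genes the 1-week arrays stood far above all others, and the 4-week arrays lay slightly below the control array of the same dye.

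*Cd5l*, a survival factor of tissue macrophages, was 66.8-fold lower at 4 weeks, with levels of 1.47 and 1.41 at 1 week and -4.55 and -4.69 at 4 weeks. *Lyz2* and *Lyz1* encode lysozymes, and they were 43-fold and 26-fold lower. *Lgals3*, a galectin of activated phagocytes, stood at -2.83 and -2.80 in control, 3.18 and 3.26 at 1 week, and -2.02 and -2.18 at 4 weeks, a fall of 39.9-fold. *Lilrb4a*, an inhibitory receptor of myeloid cells, was 33.5-fold lower. Unlike *Gpnmb* and *Spp1*, the genes *Lgals3*, *Lilrb4a* and *Lyz1* were still past 1.5-fold above control at 4 weeks. The C-type lectin *Clec4d* of monocytes and the acid-sensing receptor *Gpr65* were well above background at 1 week only, and were at least 20-fold and at least 9.89-fold lower at 4 weeks.

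In the list of phagocyte genes, 15 of 18 measured members were lower at 4 weeks and none was higher, with a median difference of -1.54 against 0.13 over all genes. The list had a median of 2.16 above control at 1 week (16 of 18 called higher) and of 0.34 above control at 4 weeks (4 of 17 called higher). Genes of border and infiltrating macrophages gave a median of -1.26, with 13 of 16 lower and 1 higher. Among them *Ms4a7*, a marker of macrophages outside the brain tissue, was 13.5-fold lower, and *Folr2*, a folate receptor of border macrophages, 8.12-fold lower. The homeostatic microglia list moved less, with 3 of 14 lower, *Fcrls* and *Aif1* among them, and a median of -0.53. Lysosomal genes followed with 12 of 18 lower and a median of -0.78, among them *Grn* and *Ctsh*, a lysosomal glycoprotein precursor and a cathepsin, at differences of -1.92 and -1.56. In a pool, fewer cells of a type and less RNA per cell cannot be told apart.

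**Figure D2:**
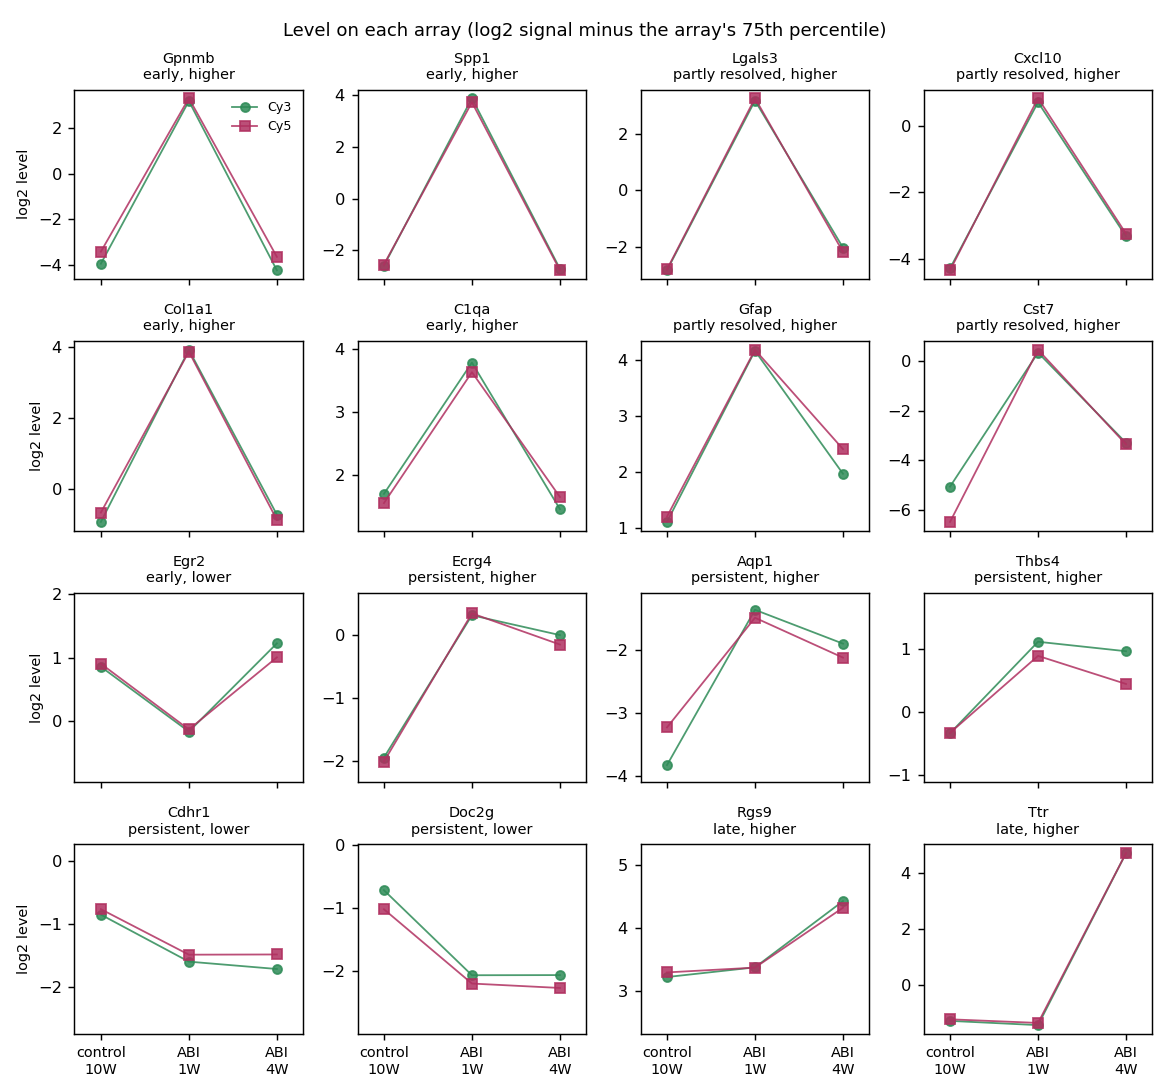
Level of 16 genes on each array (vertical, log2 signal minus the 75th percentile of the array) in the control 10W, ABI 1W and ABI 4W pools, with Cy3 as circles and Cy5 as squares. *Gpnmb*, *Spp1*, *Col1a1* and *C1qa* returned to the control level, *Gfap* and *Cst7* stayed above it, *Ecrg4*, *Aqp1* and *Thbs4* were above it at both weeks and not called between them, and *Ttr* and *Rgs9* rose at 4 weeks only. Axis ranges differ between genes.

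Signals that recruit and instruct leukocytes fell as a group. Of 16 measured chemokines and chemokine receptors, 10 were lower at 4 weeks and none higher, with a median of -2.17. *Cxcl10*, an interferon-induced chemokine for T cells, stood at -4.30 and -4.36 in control, 0.72 and 0.84 at 1 week, and -3.33 and -3.25 at 4 weeks, so that it fell 16.8-fold and remained 2.05-fold above control. *Ccl2*, the main chemokine for monocytes, fell 12.9-fold to a level 1.34-fold above control, which is inside the limit. *Ccl5* differed by -2.82, and *Ccl7* was at least 10.6-fold lower. The arrays of ABI 1W stood above those of both other pools for all 4 of these genes.

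Receptors that sense debris and antibody behaved alike in direction. All 8 measured Fc receptors and ITAM adaptors were lower, with a median of -1.54, led by *Fcer1g* (-1.97) and *Tyrobp* (-1.92), the adaptor through which Trem2 signals. Of 13 Toll-like receptor genes, 6 were lower, among them *Tlr2* (-2.45), *Tlr1* (-1.66), *Tlr13* (-0.89) and *Tlr6* (-1.60, a bound). Of 13 genes of the IL-1, TNF and IL-6 family, 4 were lower, and they were the receptors *Tnfrsf1b*, *Osmr*, *Il1r1* and *Il10ra*. Neither *Il6* nor *Lif* was well above background on any of the 4 arrays. Complement genes had a median of -1.39 with 10 of 14 lower. *C1qa*, a chain of the molecule that opens the classical pathway, stood at 1.70 and 1.56 in control, 3.78 and 3.63 at 1 week, and 1.46 and 1.65 at 4 weeks. The 4-week arrays of *C1qa* were thus level with control. *C1qc* fell 3.85-fold, and *Cfb*, a protease of the alternative pathway, and *C5ar1*, the receptor of the anaphylatoxin C5a, differed by -2.63 and by -1.92 (a bound).

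Interferon-stimulated genes fell together, with 16 of 19 measured members lower, none higher and a median of -1.55. The same genes were called higher than control at 1 week in 17 of 19 cases and at 4 weeks in 0 of 19. *Oas1a*, a sensor of double-stranded RNA, had levels of 1.05 and 1.07 at 1 week and -1.17 and -1.50 at 4 weeks, a fall of 5.25-fold. *Bst2*, an antiviral membrane protein, fell 4.57-fold, and *Rsad2*, the enzyme viperin, 4.07-fold. MHC class I genes, which present peptides and respond to interferon as well, were lower in 8 of 9 cases with a median of -1.29, and class II genes in 5 of 8 cases with a median of -1.33. *H2-Ab1*, *Cd74*, *H2-Eb1* and *H2-Aa* led the class II list with differences of -1.89, -1.76, -1.67 and -1.46. In the class I list *Tap1* (a bound), *Psmb8*, *H2-D1* and *H2-K1*, a peptide transporter, a subunit of the immunoproteasome and a pair of heavy chains, differed by -1.74, -1.56, -1.54 and -1.40. None of the class I or class II genes was called against control at 4 weeks.

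The interferon-stimulated response element was searched in RefSeq promoters (GRCm38.p6, from 250 bases before to 50 after each start) as GAAANNGAAA on both strands. It was found in 3.44% of all 32851 promoters, or in 3.99% of 27025 genes, and in 10 of the 16 interferon-stimulated genes that had a promoter in the table. It was found in 1 of 7 MHC class I genes, in 1 of 15 collagen and scar genes, and in 0 of 7 complement, 0 of 19 cell cycle and 0 of 14 choroid plexus genes. The stretches around the matches are shown for the 4 interferon-stimulated genes with a match that fell most, 5′ to 3′ along the gene, with the matched letters in capitals.
Oas1a, chr5:120907500-120907575, minus strand: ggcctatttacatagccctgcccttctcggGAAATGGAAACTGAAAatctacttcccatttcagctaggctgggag
Bst2, chr8:71537557-71537632, minus strand: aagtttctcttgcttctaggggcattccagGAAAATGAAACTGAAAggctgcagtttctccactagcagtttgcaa
Rsad2, chr12:26456533-26456602, minus strand: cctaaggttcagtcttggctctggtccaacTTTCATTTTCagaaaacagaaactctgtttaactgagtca
Ifitm3, chr7:141010695-141010772, minus strand: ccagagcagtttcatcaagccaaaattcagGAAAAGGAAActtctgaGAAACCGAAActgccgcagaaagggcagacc
In *Oas1a* and *Bst2* 2 matches overlap, in *Ifitm3* they are 2 separate copies, and in *Rsad2* the single match lies on the other strand. A match describes the letters and was not tested as a binding site here.

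Collagen and scar matrix genes had a median close to that of the phagocyte genes. Of 20 measured members, 16 were lower and none higher, with a median of -1.53. *Col3a1* and *Col1a1*, the fibrillar collagens of connective tissue, fell 27.1-fold and 25.7-fold. *Col1a1* had levels of -0.93 and -0.67 in control, 3.91 and 3.86 at 1 week, and -0.73 and -0.87 at 4 weeks, and no member of the list was called against control at 4 weeks. *Col1a2* and *Postn*, the matrix protein periostin, differed by -3.63 and -3.23. Among matrix metalloproteinases and their inhibitors, 6 of 16 were lower. *Mmp13*, a collagenase, was well above background at 1 week only and at least 23.8-fold lower at 4 weeks, *Timp1* fell 9.5-fold and *Mmp2* 6.6-fold. Of 18 genes of the TGF-beta pathway, 7 were lower, led by *Thbs1*, *Ltbp2*, *Tgfbi* and *Tgfb1* (-2.48, -2.42, -1.88 and -1.35).

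Of the markers of the leptomeninges, 6 of 16 were lower (*Lum*, *Mgp*, *Slc22a2*, *Igfbp2*, *Dcn* and *Ogn*). The other 10 were not called, the list median of -0.46 was inside the limit, and the mean level of the list was 0.85 and 0.87 at 1 week against 0.20 and 0.11 at 4 weeks and 0.25 and 0.16 in control. In the blood list 6 of 7 measured members were lower, with a median of -2.14. *Hbb-bs*, a hemoglobin chain, stood at 1.53 and 1.24 in control, 3.35 and 3.39 at 1 week, and 0.54 and 0.79 at 4 weeks, and *S100a8*, a protein of neutrophils, fell 6.78-fold. *Alas2*, the heme synthesis enzyme of red cells, fell 6.17-fold. The mean level of the blood list was 0.78 and 0.88 at 1 week, -1.12 and -1.30 at 4 weeks and -0.98 and -1.12 in control, and its part in the falls of the myeloid genes was not tested. Of the heme and iron handling genes, 3 of 14 were lower (*Slc11a1*, *Hmox1* and *Cybrd1*), although a second probe of *Hmox1* differed by only -0.02.

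Genes of dividing cells were lower at 4 weeks in 15 of 21 measured cases, with a median of -1.27. *Mki67*, a nuclear protein of cycling cells, stood at -2.42 and -2.44 in control, -0.12 and -0.05 at 1 week, and -2.47 and -2.38 at 4 weeks. *Top2a*, the topoisomerase of replicating chromosomes, was at least 6.15-fold lower. The mitotic kinase gene *Cdk1* was at least 9.56-fold lower by its brightest probe, while its other measured probe went the other way by 2.12. Of the 17 cell cycle genes measured against control at 4 weeks, none was called.

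**Figure D3:**
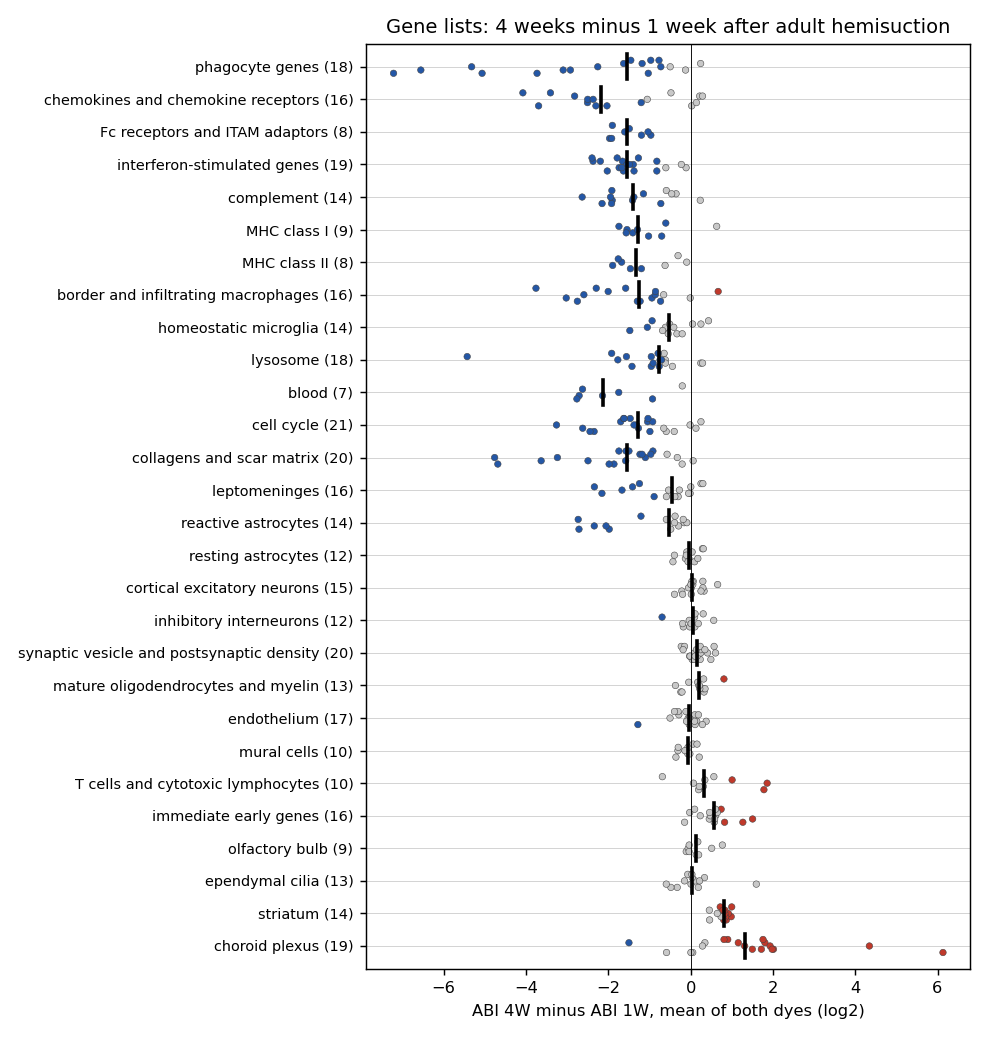
Difference between ABI 4W and ABI 1W (horizontal, log2, mean of both dyes) for each measured member of 28 gene lists, with the number measured in brackets, the median as a black bar, higher calls in red and lower calls in blue. The myeloid, interferon, matrix, blood and cell cycle lists lie to the left, neuronal and vascular lists around 0, and choroid plexus and striatum to the right.

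Reactive astrocyte genes fell less evenly. Of 14 measured members, 6 were lower and none higher, with a median of -0.53. *Serpina3n*, a protease inhibitor of reactive astrocytes, fell 6.64-fold to the control level, *Emp1* 6.55-fold, and *Vim*, an intermediate filament protein, 4.15-fold. *Gfap*, the main filament protein of astrocytes, stood at 1.12 and 1.21 in control, 4.16 and 4.18 at 1 week, and 1.97 and 2.41 at 4 weeks. It fell 3.93-fold between the weeks and was still 2.04-fold above control at 4 weeks. No member of the resting astrocyte list was called (0 of 12, median -0.05).

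Between the extremes, 16 genes were past 1.5-fold above control at both weeks and at the same time lower at 4 weeks than at 1 week. They were *Acp5*, *C4b*, *Ccl3*, *Col8a2*, *Cst7*, *Cxcl10*, *Cxcl5*, *Gfap*, *Itgax*, *Lbp*, *Lgals3*, *Lilrb4a*, *Lyz1*, *Mlph*, *S100a4* and *Tlr1*. *C4b*, the complement component cleaved after C1q, had levels of 0.42 and 0.37 in control, 3.59 and 3.47 at 1 week, and 2.25 and 1.99 at 4 weeks. It was 8.78-fold above control at 1 week and 3.3-fold above it at 4 weeks, so that its level lay clear of control on every array. *Cst7* and *Itgax*, a cystatin and an integrin of microglia near damage, and the chemokine *Ccl3* were not well above background in the control pool. At 4 weeks they were at least 3.5-fold, at least 2.49-fold and at least 3.79-fold above it. These 16 genes had a median of 3.85 above control at 1 week and of 0.94 at 4 weeks. The only gene of this kind below control was *Ccdc78*.

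Counted over all genes, 941 genes (5.76% of 16323 measured) were higher and 1131 (6.93%) lower than control 10W at 1 week, whereas 137 (0.841% of 16299) were higher and 56 (0.344%) lower at 4 weeks. These differences and the direct one share the same pools and are given as a description. Of the genes above control at 1 week, 646 were within the limit at 4 weeks and called lower between the weeks, with medians of 1.37 and 0.13 above control at the 2 weeks. For comparison, the control pools differed from each other as well, since 881 genes (5.42% of 16264) were higher and 124 (0.762%) lower in control 10W than in control P35. With control P35 in place of control 10W, 611 genes were of this early, higher kind, and 571 of them were shared. The 769 genes below control at 1 week and back within the limit at 4 weeks depended on the control pool, as 101 genes were of that kind with control P35 and 68 of these were shared. Of the 769 genes, 725 lay in the lowest signal group.

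**Figure D4:**
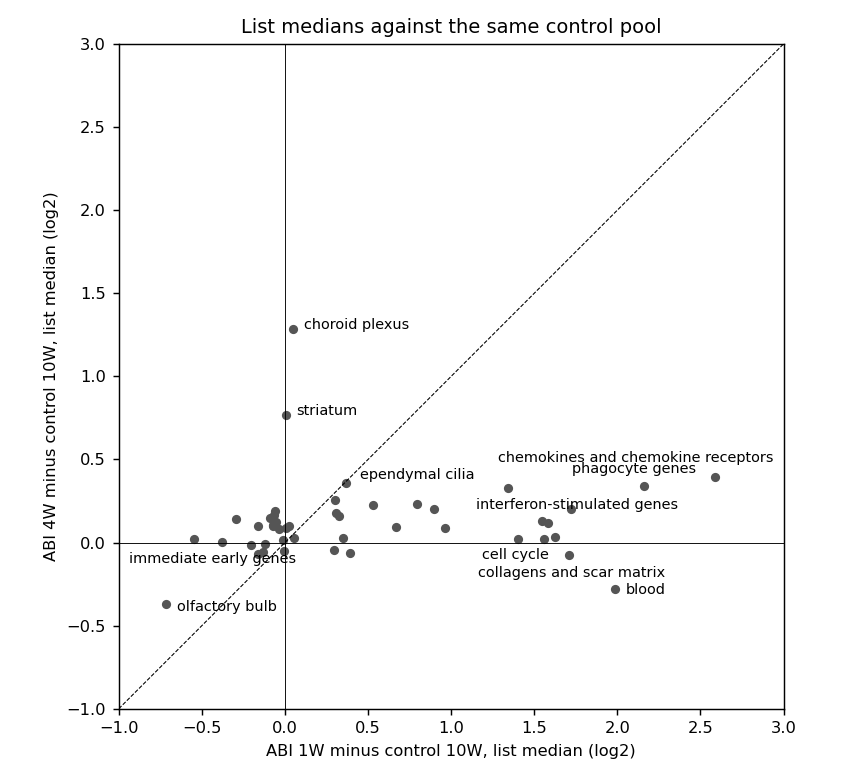
Median of each of the 46 gene lists above control 10W at 1 week (horizontal, log2) and at 4 weeks (vertical, log2), with the dashed line marking equal values. The inflammatory, matrix, blood and cell cycle lists lie far right and near 0 on the vertical axis, while choroid plexus (0.05 and 1.28) and striatum (0.01 and 0.77) lie near 0 at 1 week and above it at 4 weeks.

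Genes past the limit from control at both weeks and not called between them numbered 21 above control and 19 below it. Of the 21, 12 lay in the lowest signal group and 4 involved a bound. Of the 19, 12 involved a bound. *Ecrg4*, a secreted protein of choroid plexus and quiescent cells, stood at -1.95 and -2.01 in control and was 4.93-fold above it at 1 week and 3.73-fold at 4 weeks. *Aqp1*, the water channel of the choroid plexus epithelium, was 4.29-fold and 2.86-fold above control, and *Kcne1l*, a potassium channel subunit, 3.85-fold and 2.35-fold. *Thbs4*, a thrombospondin that astrocytes make after injury, had levels of -0.33 and -0.33 in control, 1.11 and 0.89 at 1 week, and 0.96 and 0.45 at 4 weeks. The zinc transporter gene *Slc39a4* was 2.36-fold and 1.79-fold above control, and *Clec2d*, a ligand of a killer cell receptor, 1.86-fold and 1.94-fold. *Ccdc153* and *Tmem212*, which are markers of ependymal cilia, belonged here too. Of 13 measured ependymal genes, 5 were above control at 1 week and 2 at 4 weeks, and none was called between the weeks. The list median was 0.36 above control at both weeks. Only 9 of the 21 genes were of this kind with control P35 as well.

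Of the 19 genes below control at both weeks, 12 were not well above background on both arrays of either ABI pool and have no value between the weeks. Of the others, *Doc2g* and *Cdhr1* are expressed by mitral and tufted cells of the olfactory bulb, and so is *Tbx21*. *Doc2g* stood at -0.72 and -1.02 in control, -2.07 and -2.20 at 1 week, and -2.06 and -2.27 at 4 weeks, and *Cdhr1* was 1.66-fold and 1.73-fold below control. *Eomes* of the same list was also below control at both weeks. Of these 4 genes, only 3 were measured between the weeks. The mean level of the olfactory bulb list was -1.28 and -1.34 in control 10W, -2.17 and -2.07 at 1 week, and -1.79 and -2.04 at 4 weeks. In the control P35 pool *Doc2g* stood at -1.09 and -1.19, close to control 10W. *Cdhr1* stood at -1.02 and -1.08 there and at -1.60 and -1.49 at 1 week, which is inside the limit. Only 5 of the 19 genes were of this kind with control P35 as well. The part of olfactory bulb tissue in the control samples was not tested. *Tm6sf2*, *Macc1* and *B430306N03Rik* were the other named genes below control at both weeks, and a second probe of the last differed by -3.87 between the weeks.

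Of the 46 gene lists, that of the choroid plexus had the highest median difference between the weeks. *Ttr*, transthyretin, the thyroid hormone carrier that this epithelium secretes, stood at -1.30 and -1.24 in control, -1.45 and -1.37 at 1 week, and 4.72 and 4.72 at 4 weeks. It was 70.1-fold higher at 4 weeks than at 1 week, while the 1-week and control arrays lay level. *Kcne2*, a potassium channel subunit of the same epithelium, was well above background at 4 weeks only and was at least 20.3-fold higher there. *Folr1*, the folate receptor of the plexus, rose 4.04-fold, *Kl*, the hormone co-receptor klotho, 3.5-fold, *Otx2*, a transcription factor of this epithelium, 3.82-fold, and *Clic6*, a chloride channel protein, 3.39-fold. In the list, 13 of 19 measured members were higher and 1, *Col8a1*, was lower, with a median of 1.31 (0.90 to 1.05 under the other scalings). Of the 19, 10 lay in the lowest signal group. Against control, 4 of 16 were higher and 3 lower at 1 week, and 11 of 19 were higher and none lower at 4 weeks. *Prlr*, *Slc4a5* and *Sostdc1* were below control at 1 week and within the limit at 4 weeks. The mean level of the list was -3.35 and -3.26 at 1 week and -1.59 and -1.71 at 4 weeks. Its tight junction gene *Cldn2* was not well above background on any of the 4 arrays. The share of plexus tissue in the dissected samples was not tested.

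Markers of the striatum rose together by a smaller amount. All 14 members were measured, 10 were higher at 4 weeks and none lower, and the differences lay between 0.46 and 1.00 with a median of 0.82 (0.41 to 0.72 under the other scalings). *Rgs9*, a regulator of dopamine receptor signaling, had levels of 3.22 and 3.29 in control, 3.37 and 3.37 at 1 week, and 4.42 and 4.32 at 4 weeks. The dopamine receptor genes *Drd1* and *Drd2* were 1.83-fold and 1.98-fold higher, and the adenosine receptor gene *Adora2a* 1.89-fold. The 4-week arrays lay above both other pools for each of these genes, although all 4 missed the limit after median scaling. In the control P35 pool, however, *Rgs9* stood at 3.99 and 3.93, nearer to the 4-week pool than control 10W was. In the list for hypothalamus and basal forebrain, 6 of 16 were higher with a median of 0.62, among them *Isl1*, *Avp* and *Ghrh*, and 8 of the 16 lay in the lowest signal group. Against control, 6 of 15 of this list were lower at 1 week and 1 of 16 was higher at 4 weeks, where the median was 0.14. The median between the weeks was 0.20 after median scaling, and the call of *Ghrh* was lost in 4 of 8 alternatives. Genes higher than control at 4 weeks only numbered 58, of which 7 belong to the choroid plexus list and 8 to the striatum list. With control P35 in place of control 10W, 621 genes were of this kind, and 24 of them were shared. *Gdnf*, a neurotrophic factor, was another, 2.4-fold higher at 4 weeks than at 1 week at a low signal. The share of neighbouring regions in the dissected samples was not tested.

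Of 16 immediate early genes, which respond to neuronal activity, 5 were lower than control at 1 week and none at 4 weeks. *Egr2* had levels of 0.85 and 0.90 in control, -0.17 and -0.14 at 1 week, and 1.22 and 1.00 at 4 weeks, a rise of 2.41-fold between the weeks. *Egr1* rose 1.67-fold and *Nr4a1* 1.77-fold, and *Egr3* was at least 2.84-fold higher. Between the weeks, 4 of the 16 were called higher and none lower, with a median of 0.58 (0.17 to 0.49 under the other scalings). The calls of *Egr1* and *Nr4a1* were lost after median scaling and without scaling, and those of *Egr1* and *Egr3* after quantile normalization. Against control their median was -0.55 at 1 week and 0.02 at 4 weeks.

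Neuronal, oligodendrocyte and vascular lists differed little between the weeks. No member was called among 15 markers of cortical excitatory neurons, 20 synaptic genes and 10 mural cell genes, with medians of 0.03, 0.15 and -0.06. Among interneuron markers 1 of 12, the calcium binding protein gene *Calb2*, was lower by 0.69 and is also expressed by olfactory bulb interneurons. Of the myelin genes 1 of 13, *Ermn*, was higher, of the precursor genes *Tmem163* was higher and *Enpp6*, an enzyme of newly formed oligodendrocytes, lower, and of the endothelial genes 1 of 17, the adhesion molecule gene *Icam1*, was lower. Immature neuron genes had 1 of 11 lower (*Cd24a*). The calls of *Ermn* and *Enpp6* were lost with the mean over all probes, that of *Ermn* also after median scaling and without scaling, and those of *Calb2* and *Icam1* with normexp. In the axon guidance list *Dcc*, a netrin receptor, was higher and *Rtn4r*, the Nogo receptor, lower among 26 genes. The call of *Dcc* was lost in 5 of 8 alternatives. It was kept only with 1 dye alone and with all arrays well above background, which reuse the same values. In the regeneration-associated list 2 of 14, *Atf3* and *Socs3*, were lower by 2.54 and 0.81. Of 23 growth factor genes *Gdnf* was higher and *Igf1*, the insulin-like growth factor that phagocytes also make, lower. Of 15 circadian clock genes *Per3* was higher (a call lost in 4 of 8 alternatives), and of 14 housekeeping genes the lysosomal enzyme gene *Gusb* was lower.

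Respiratory chain (26 genes), ribosomal protein (20), heat shock (11) and glucocorticoid-responsive (13) lists had no call, with medians of 0.25, 0.23, 0.19 and 0.25. These medians and those of the neuronal and myelin lists were near the median of all genes and turned negative after median scaling. The 3 measured Y-linked genes were well above background on both arrays of each ABI pool and differed by 0.02 to 0.22. The Y-linked gene *Kdm5d* was not well above background on any of the 4 arrays. *Xist* was not well above background on both arrays of either ABI pool.

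T cell genes did not follow the myeloid genes. Of 10 measured members, 3 were higher at 4 weeks, namely *Cd8a* (at least 3.63-fold), *Cd2* (at least 3.44-fold) and *Cd8b1*, and the list median of 0.33 became -0.09 after median scaling. The call of *Cd8b1* was lost with all 3 other scalings and that of *Cd2* with the mean over all probes. All 3 lay in the lowest signal group, and the control 10W levels of *Cd2* (-4.09 and -4.11) were close to those at 4 weeks (-3.61 and -4.14). Neither *Cd3d*, *Cd3g* nor *Ifng* was well above background on any of the 4 arrays.

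Most other genes that were higher at 4 weeks had signals near the background. The lowest of the 4 signal groups held 88.7% of the higher and 38.7% of the lower calls, its median difference was 0.49 with Cy3 and 0.23 with Cy5, and the standard deviation of the difference between dyes was 0.68 in it against 0.22 in the other 3 groups. Of the 10 largest rises measured on all 4 arrays, 5 were olfactory receptor genes, which encode odorant receptors of the nasal epithelium, and *Tex22*, *Ltb4r2* and *Ankmy1* were in the same signal range. *Olfr538*, the highest of the receptors, had a mean level of -2.05 in control, and stood at -4.86 and -4.11 at 1 week, and -1.78 and -2.28 at 4 weeks. The largest bounds besides *Kcne2* were those of *Vmn1r82*, *Lce1a1*, *Olfr599* and *Olfr661*, from at least 6.78-fold to at least 7.91-fold. The receptor families were grouped by name after the values were seen. Of 309 measured olfactory receptor genes 201 were higher and none lower, and of 79 vomeronasal receptor genes 41 were higher and none lower. The lowest signal group held 277 of the 309 and 68 of the 79. In that group 992 of 4049 genes were higher, and over all measured genes 6.9% were. With a different background correction (normexp), the higher calls in all fell from 1118 to 633.

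**Figure D5:**
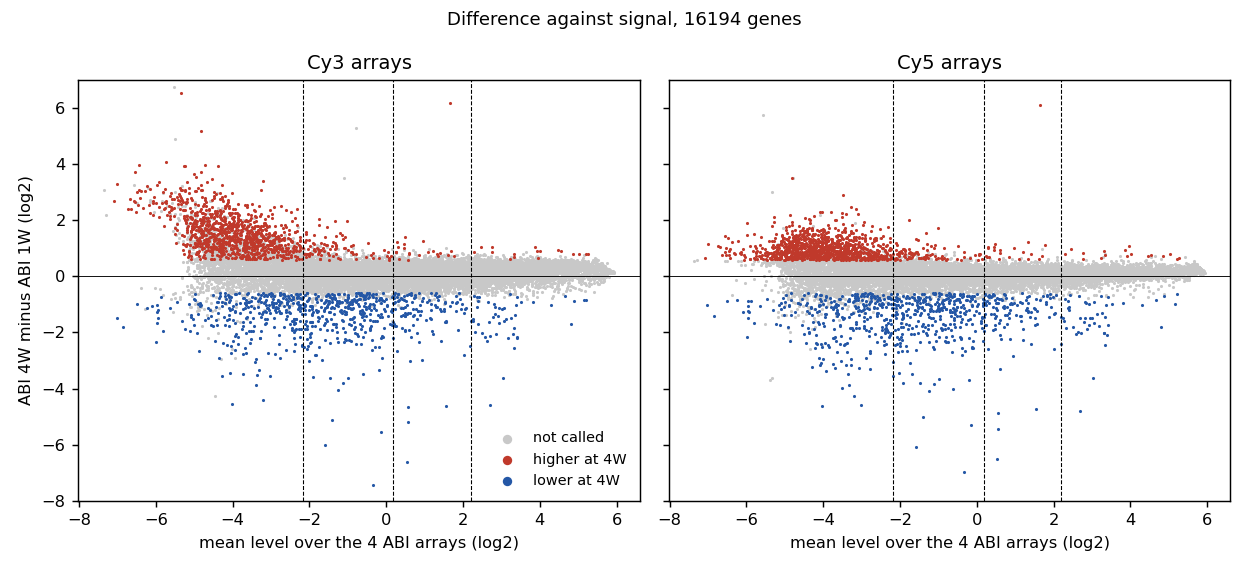
Difference between ABI 4W and ABI 1W (vertical, log2) against the mean level of the gene over the 4 arrays (horizontal, log2) for the Cy3 arrays and the Cy5 arrays, with dashed lines between the 4 signal groups. Higher calls (red) crowd at the lowest signals and reach further up with Cy3, whereas lower calls (blue) extend over all 4.

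The genes that the study chose for RT-PCR from these samples are not independent evidence of a direction. Besides *Ttr* and *Kcne2*, *Wfdc2*, a secreted protein of epithelia, was higher at 4 weeks (at least 2.83-fold). *Cytip* and *Msr1*, a regulator of leukocyte adhesion and a scavenger receptor of macrophages, were lower (at least 2.05-fold and at least 1.92-fold), and *Acod1*, which makes itaconate in activated macrophages, was well above background at 1 week only but missed the limit with Cy3 (-0.55 and -0.89). The call of *Cytip* was lost with normexp, and that of *Wfdc2* without scaling and after quantile normalization. *Gdf3* and *Phactr2* differed by 0.33 and 0.23. *Asb17*, *Il4* and *Mov10l1* were not measured in either ABI pool, and *Gapdh* was saturated in both.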

How the data were processed

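RNA of each pool was hybridized by the authors to Agilent mouse whole genome arrays, and the spots were quantified with Feature Extraction of Agilent (11.0.1.1 in the submitters' processing notes), whose headers name the mm9 build. The deposited tables hold the spot intensity, its local background and a processed intensity from which the background had been subtracted. No dye normalization had been applied. The value table of the series repeats the processed signal and was not used.

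The processed signal of the labeled channel was floored at 1, put on the log2 scale and reduced by the 75th percentile of the array. Control spots and outlier spots were left out, and spots of the same probe were averaged. Probes were named through RefSeq accessions (26582 of 55681 probes, 20145 genes), and the brightest probe stood for a gene. Differences were taken within each dye. Alternatives were normexp with an offset of 50 (limma 3.58.1 in R 4.3.3), other scalings, limits, filters, probe rules, 1 dye alone and another control. Other steps used Python 3.11.15, numpy 2.4.6 and pandas 2.3.3. The call rule was tried on simulated data. Known changes were placed there only in genes above the median level and well above background. The simulation therefore does not cover changes of dim genes or bounds.

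The comparison, the 46 gene lists (709 of 720 entries had a probe) and the rules were chosen with earlier results of these data known, and the lists were written from general knowledge. The genes named are the 10 largest rises and falls among genes measured on all 4 arrays, the 5 largest bounds each way, the genes the study chose for RT-PCR, up to 4 called members of each list (or the 2 largest where none was called), and the 6 genes highest and lowest against control at both weeks. Any other gene was named after its values were seen, and a few genes that the rule takes are not reported here.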

Additional observations from a re-analysis of the deposited data

Results flagged for a closer look

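The same contrast of weeks was compared between the adult pools and the neonatal pools (labelled NBI 4W, 35 days of age, and NBI 1W, 14 days of age), which had the operation at 7 days of age. In the choroid plexus list, 13 of 19 measured genes were higher at 4 weeks after the adult operation. After the neonatal operation 10 of the 19 were lower and none higher, with a median of -0.71. Single genes were compared only among those named by the rules above, so their number is not a count over all genes. The following 5 genes were past 1.5-fold with both dyes in opposite directions, higher at 4 weeks after the adult operation and lower at 4 weeks after the neonatal one. The difference was not tested, since each condition is 1 pool. In both contrasts the weeks also differ in age, which for the neonatal pools is developmental. *Ttr* rose by a mean of 6.13 in the adult pools and changed by -1.09 with both dyes in the neonatal pools, whose level was already 5.06 and 5.04 at 1 week. *Folr1* rose by 2.01 against -0.97 and -1.12 with Cy3 and Cy5 in the neonatal pools, and *Sostdc1*, a secreted inhibitor that the choroid plexus list holds, by 1.98 against -1.22 and -0.92. *Isl1* of the hypothalamus and basal forebrain list rose by 1.46 against a neonatal mean of -0.77. *Adora2a* of the striatum list rose by 0.92 against -0.70.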

How the results depend on the processing

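None of the named genes that were called changed sign under the 8 alternatives tried for them, and the 16 list medians past 1.5-fold kept their sign under each. For a called gene, 1 dye alone and the rule that all arrays be well above background reuse the same values. These alternatives could not reverse a call or bring it inside the limit. A call counted as lost among the 8 was therefore lost under the others. Over all 46 lists, however, the sign of the median changed for 16 after median scaling, 15 without scaling and 7 after quantile normalization. After median scaling 12 of 129 called genes missed the limit, among them *Adora2a*, *Drd1*, *Drd2*, *Rgs9*, *Egr1* and *Nr4a1*. The cause of the following changes was not tested. The higher genes (1118) became 633 with normexp, 491 after median scaling, 523 after quantile normalization, 510 without scaling, 657 when all arrays had to be well above background, 412 at 2-fold, 2168 without a background filter and 4927 counted as probes. The lower genes (741) became 1554, 1125 and 1216 with the 3 scalings in that order and 420 at 2-fold. The early, higher genes (646) became 1337 after median scaling and 380 at 2-fold, and the early, lower genes (769) became 299 with normexp, 317, 299 and 418 with the 3 scalings, 426 when all arrays had to be well above background, 258 at 2-fold, 1478 without a filter, 3533 as probes and 101 with control P35. The partly resolved genes (17) became 8 with normexp, 27 after quantile normalization, 9 without scaling, 4 at 2-fold, 94 without a filter and 31 with control P35. The persistent genes (40) became 13 with normexp, 21 with all arrays well above background, 8 at 2-fold, 78 at 0.75-fold for lower genes, 235 without a filter, 122 as probes and 115 with control P35. The late genes (67) became 40 with normexp, 15 at 2-fold, 224 without a filter, 173 as probes and 643 with control P35. With 1 dye alone the higher genes numbered 1358 to 2836, the lower 1078 to 1096, the early, higher 732 to 900, the early, lower 857 to 1754, the partly resolved 61 to 137, the persistent 256 to 415 and the late 253 to 587. No paired analysis was possible because each pool was measured once with each dye and no test was made. A gene whose signal is near background gives a bound or no value.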
